A study of Mus musculus with 3 samples.

Results

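Dppa3-high cells were the cells with the most Dppa3 mRNA in 3 single-cell RNA libraries of mouse embryonic stem cells. Dppa3 (also called Stella) encodes a small maternal and germline protein. In each library the intact cells were ranked by Dppa3 UMIs (unique molecular identifiers, 1 per captured mRNA molecule) per 10000 UMIs, and the top 10% were taken, so the members were chosen by their measured Dppa3 level, which is given below as a description only. This gave 187 cells, 36 of 359 intact cells at 0 ng/ml FGF4, 71 of 706 at 5 ng/ml and 80 of 798 at 50 ng/ml, out of 2222 cell barcodes in all. Intact meant at most 10% mitochondrially encoded UMIs and a UMI total within 3-fold of the library's median. They were compared with the Dppa3-low cells of the same library, those with at most 1 Dppa3 UMI, of which there were 129, 386 and 489. The remaining 194, 249 and 229 intact cells are called middle cells.

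All cells were Fgf4 -/- E14tg2a cells, a male mouse embryonic stem cell line, so they make no functional FGF4 of their own and receive only what is added. They were seeded in medium with LIF, then kept for 24 h in serum-free N2B27 medium with the GSK3 inhibitor Chiron and 1 µg/ml heparin, a cofactor of FGF binding, with 0, 5 or 50 ng/ml FGF4. Each dose is 1 library, so dose and library cannot be told apart, and cells of 1 library are not replicates. The labels do not say how many clones the mutant cells came from, and they name trypsin or Accutase for detachment without saying which library had which.

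The DPPA3 protein is known to bind UHRF1 and to keep it from recruiting the maintenance DNA methyltransferase, and it guards the maternal genome of the zygote from demethylation. In embryonic stem cell cultures Dppa3 is known to be expressed by some cells and not by others, and Dppa3-positive cells are often described as the more naive ones. In the embryo it marks the inner cell mass and later the primordial germ cells, the founders of egg and sperm.

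By the rule, Dppa3 stood at a median of 3.91 UMIs per 10000 in the high cells at 0 ng/ml (1.94 to 10.1), 1.55 at 5 ng/ml (0.981 to 6.48) and 1.63 at 50 ng/ml (0.983 to 7.27). The last cell inside and the first cell outside the top 10% lay at 1.94 and 1.93, at 0.981 and 0.979, and at 0.983 and 0.945. The high cells of the library without FGF4 are therefore set at a higher Dppa3 level than those of the other libraries. The median UMI total was 114120 in high and 101044 in low cells at 0 ng/ml, 94258 and 95116 at 5 ng/ml, and 99933.5 and 89976 at 50 ng/ml. With each cell thinned to 30000 UMIs, high cells had a median of 5417, 5407 and 5313.5 genes and low cells 5376, 5391 and 5346. Mitochondrial UMIs were 5.27% in high and 5.47% in low cells at 0 ng/ml, 4.89% and 5.28% at 5 ng/ml, and 5.31% and 5.54% at 50 ng/ml. In the edgeR test over the 3 libraries described below, 8 of 13 mitochondrially encoded genes were lower in high cells and none higher. Each differed by less than 1.5-fold, and over all genes 4.2% were called lower. Scrublet, a doublet caller, marked 2, 3 and 1 of the high cells. No cell barcode was shared between libraries. Fgf4 transcripts were still read, at 44.1, 24.3 and 18.3 counts per 1000000 UMIs (CPM) in high cells, and a 3′ tag outside the mutated part does not check the genotype.

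For each gene the UMIs were summed over the high and over the low cells of a library and divided by the group's total without Dppa3, giving CPM. Their ratio carries a 95% interval for counting error only, since within 1 library there is no replicate error and no test. A gene is called linked where it had at least 20 CPM in the higher group and differed at least 1.5-fold, with an interval that left out 1. It also had to differ at least 1.5-fold when the cell with most of its UMIs was left out. The minimum and the interval were always read over all cells. At 0 ng/ml 81 genes were linked (1.43% of 5658), 29 higher (0.513%) and 52 lower (0.919%). At 5 ng/ml 57 were linked (1.02% of 5597), 24 higher (0.429%) and 33 lower (0.59%), and at 50 ng/ml 58 (1.05% of 5534), 26 higher (0.47%) and 32 lower (0.578%). The middle 95% of all log2 ratios lay between -0.44 and 0.44 at 0 ng/ml, between -0.36 and 0.35 at 5 ng/ml and between -0.35 and 0.34 at 50 ng/ml.

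The 7 genes linked lower in Dppa3-high cells in all 3 libraries (0.134% of 5218 genes measured in each) were Vim, Pcolce, Sox4, Meg3, Zfhx3, Sall3 and Ahnak. Only Rhox5 and Hmces were linked higher in all 3 (0.0383%). With the 3 cells that held most UMIs of a gene left out, an alternative added after the data were seen, the 7 lower genes were still linked in each library, and of genes linked higher in all 3 libraries there was none. Across libraries 61 genes were linked higher at least once, 16 of them in at least 2 libraries, and 89 were linked lower at least once, 21 of them in at least 2. No gene was linked higher in 1 library and lower in another. Few genes were linked in each library, so such a gene would be rare in any case.

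The split was also tested over the 3 libraries, each giving 1 pair of sums, with edgeR's quasi-likelihood test and library as a block, a test added after the data were seen. It treats libraries of 3 doses as replicates, with 2 residual degrees of freedom. Of 5999 genes with at least 20 CPM in a group, 226 were higher (3.77%) and 252 lower (4.2%) at a Benjamini-Hochberg adjusted p under 0.05, and 27 and 38 of these differed at least 1.5-fold. DESeq2 with the same block called 115 higher and 109 lower, and edgeR without the 5 ng/ml library 83 and 91. The 9 genes linked in all 3 libraries were among the genes called by edgeR, with adjusted p from 7e-07 (Vim) to 0.00068 (Ahnak), as were 35 of the 37 linked in at least 2. These genes were chosen on the same sums, so their p-values are no independent evidence. Below, edgeR counts and adjusted p refer to this test.

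The sequence before the start of 4 linked genes is shown because DPPA3 is known to act on CpG methylation: Rhox5 and Klhl13, which were higher in 3 and 2 libraries, and Meg3 and Ahnak, which were lower in all 3. Their windows overlap no GENCODE M21 exon. These are the 250 bases upstream of the RefSeq gene start (GRCm38.p6), with each CG in capitals.
Rhox5 (chrX:37754358-37754607, plus strand): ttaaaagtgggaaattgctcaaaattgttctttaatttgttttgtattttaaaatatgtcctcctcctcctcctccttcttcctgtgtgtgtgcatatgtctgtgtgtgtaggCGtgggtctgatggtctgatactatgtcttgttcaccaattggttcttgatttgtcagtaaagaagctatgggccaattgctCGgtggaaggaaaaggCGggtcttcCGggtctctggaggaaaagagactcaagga
Klhl13 (chrX:23365083-23365332, minus strand): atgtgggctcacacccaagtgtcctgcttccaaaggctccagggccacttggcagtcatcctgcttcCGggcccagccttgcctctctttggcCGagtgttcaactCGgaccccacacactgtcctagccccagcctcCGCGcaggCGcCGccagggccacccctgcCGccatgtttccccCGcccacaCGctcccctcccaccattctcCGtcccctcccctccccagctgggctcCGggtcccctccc
Meg3 (chr12:109540746-109540995, plus strand): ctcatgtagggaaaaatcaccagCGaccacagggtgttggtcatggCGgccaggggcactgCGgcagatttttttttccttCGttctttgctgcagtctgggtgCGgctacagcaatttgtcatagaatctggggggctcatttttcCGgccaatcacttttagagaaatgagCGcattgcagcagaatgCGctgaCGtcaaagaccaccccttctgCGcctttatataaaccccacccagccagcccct
Ahnak (chr19:8989034-8989283, plus strand): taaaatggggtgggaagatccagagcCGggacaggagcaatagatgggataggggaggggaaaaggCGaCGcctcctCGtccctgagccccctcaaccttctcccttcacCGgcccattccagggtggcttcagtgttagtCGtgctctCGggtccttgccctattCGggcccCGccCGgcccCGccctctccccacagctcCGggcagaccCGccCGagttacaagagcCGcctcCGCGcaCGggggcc
The Rhox5 window held 4 CG, the Klhl13 window 12, the Meg3 window 10 and the Ahnak window 18. The median was 18 over the 4841 matched genes of 5999 with at least 20 CPM in a group, 13 over the 49 matched genes linked higher in at least 1 library (of 61), and 11.5 over the 64 matched genes linked lower (of 89). At most 4 CG were present in 5 of the 49, 14 of the 64 and 5.56% of the 4841, while 99.5% of the 4841 held at least 1. The libraries do not measure methylation, and RefSeq places the Rhox5 start upstream of the gene body in the GENCODE M21 annotation (chrX:37804842-37808876, plus strand), so the window need not be the promoter in use here.

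**Figure D1:**
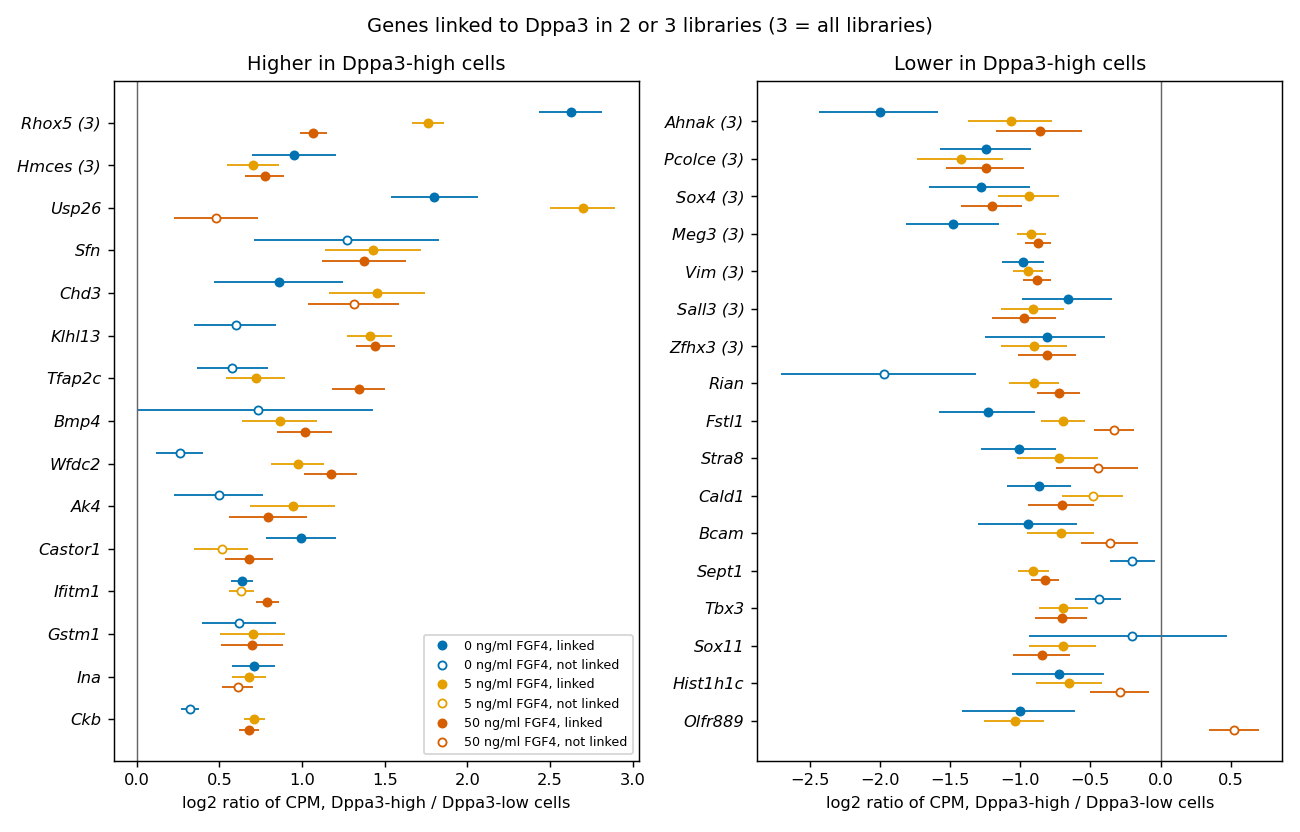
Log2 ratio of CPM in Dppa3-high over Dppa3-low cells (horizontal axis) for genes linked in at least 2 libraries, predicted, ribosomal protein and unreported genes left out. Points are libraries (0, 5 and 50 ng/ml FGF4), filled where linked, and lines are 95% counting intervals. Vim lay at -0.98, -0.94 and -0.88, while Wfdc2 lay at 0.26, 0.97 and 1.17.

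Vim (chr2:13573927-13582826, plus strand), which encodes the intermediate filament protein vimentin, stood at 102 CPM in high and 202 in low cells at 0 ng/ml, at 109 and 210 at 5 ng/ml, and at 110 and 203 at 50 ng/ml. The level was thus nearly the same at each dose within each class of cells, and it was 1.97-fold (1.78 to 2.19), 1.92-fold (1.79 to 2.07) and 1.84-fold (1.72 to 1.97) lower in high cells. Single cells overlapped: at 50 ng/ml the middle 50% of high cells lay between 0.365 and 1.46 Vim UMIs per 10000, with a median of 0.69, and that of low cells between 1.21 and 2.68, with a median of 1.94. Pcolce (chr5:137605103-137613784, minus strand), whose product enhances the trimming of procollagens, stood at 21.1 CPM in high and 50.0 in low cells at 0 ng/ml, at 13.4 and 35.8 at 5 ng/ml, and at 14.3 and 34.0 at 50 ng/ml. It was 2.37-fold (1.9 to 2.98), 2.68-fold (2.17 to 3.33) and 2.37-fold (1.97 to 2.89) lower in high cells, and it was the only gene linked in each library when at least 2-fold was asked for.

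Ahnak (chr19:8989284-9076914, plus strand), which encodes a very large scaffold protein at the plasma membrane, stood at 12.0 CPM in high and 47.8 in low cells at 0 ng/ml. It stood at 14.5 and 30.3 at 5 ng/ml, and at 12.1 and 22.0 at 50 ng/ml. The level in low cells was 2.18-fold lower at 50 than at 0 ng/ml (1.97 to 2.40), and that in high cells differed by less than the counting error, 1.01-fold (0.714 to 1.45). Cald1, which encodes the actin-binding caldesmon, was linked lower at 0 and 50 ng/ml, at 44.1 CPM in high and 80.4 in low cells and at 20.1 and 32.7. At 5 ng/ml it stood at 28.0 and 39.0. Fstl1, a secreted glycoprotein, and Bcam, a laminin receptor, were linked lower at 0 and 5 ng/ml. Fstl1 was 2.35-fold (1.86 to 2.99), 1.62-fold (1.45 to 1.8) and 1.26-fold (1.14 to 1.39) lower from 0 to 50 ng/ml.

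Sox4 (chr13:28948919-28953713, minus strand), a member of the SoxC group, stood at 17.4 CPM in high and 42.1 in low cells at 0 ng/ml, at 27 and 51.7 at 5 ng/ml, and at 23 and 53 at 50 ng/ml. It was 2.43-fold (1.9 to 3.13), 1.92-fold (1.65 to 2.23) and 2.3-fold (1.99 to 2.69) lower in high cells. Sox11, of the same group, was below 20 CPM without FGF4, at 5.40 and 6.23 CPM, and was linked lower at 5 ng/ml (22.9 against 37.1) and at 50 ng/ml (26.7 against 48.0). Zfhx3 (chr8:107942644-108961630, plus strand), a zinc-finger homeobox factor, was 1.75-fold, 1.86-fold and 1.75-fold lower. Sall3 (chr18:80966376-80986771, minus strand), a spalt-like zinc-finger factor, stood at 23 CPM in high and 36.4 in low cells at 0 ng/ml, at 25.4 and 47.7 at 5 ng/ml, and at 21.4 and 42 at 50 ng/ml. Epha4, a receptor for ephrins, was linked lower only at 50 ng/ml, where it stood at 9.91 CPM in high and 25.3 in low cells, against 37.6 and 36.3 at 0 ng/ml.

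Of 12 imprinted genes measured, 2 were linked lower at each dose and none higher, beside a median log2 ratio of -0.06, 0.02 and -0.02 over the list and near 0 over all genes (at 5 ng/ml the list's sign turned under other scalings). Over all genes 0.919%, 0.59% and 0.578% were linked lower at 0, 5 and 50 ng/ml. By edgeR, 4 of the 12 were lower (Meg3, Rian, Kcnq1ot1 and Phlda2) and 1 higher (Snrpn), beside 4.2% and 3.77% of all genes. Meg3 (chr12:109541001-109571726, plus strand), a maternally expressed long non-coding RNA of the Dlk1-Dio3 domain, stood at 20.2 CPM in high and 56.2 in low cells at 0 ng/ml, at 118 and 224 at 5 ng/ml, and at 130 and 237 at 50 ng/ml. The level at 50 ng/ml was 6.42-fold that at 0 ng/ml in high cells (5.15 to 8.1) and 4.22-fold in low cells (3.92 to 4.55). High cells had less at each dose, 2.78-fold (2.23 to 3.52), 1.89-fold (1.76 to 2.03) and 1.83-fold (1.72 to 1.95). Rian, a non-coding RNA of the same domain, was linked lower at 5 ng/ml (39.9 against 74.5 CPM) and 50 ng/ml (46.0 against 76.1). At 0 ng/ml it stood at 4.70 and 18.4, below the minimum of 20. Grb10, which encodes an adaptor that restrains growth signalling, was linked lower only at 0 ng/ml, at 23.2 against 41.5 CPM. Its ratios with FGF4 were -0.04 and -0.12 on the log2 scale.

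**Figure D2:**
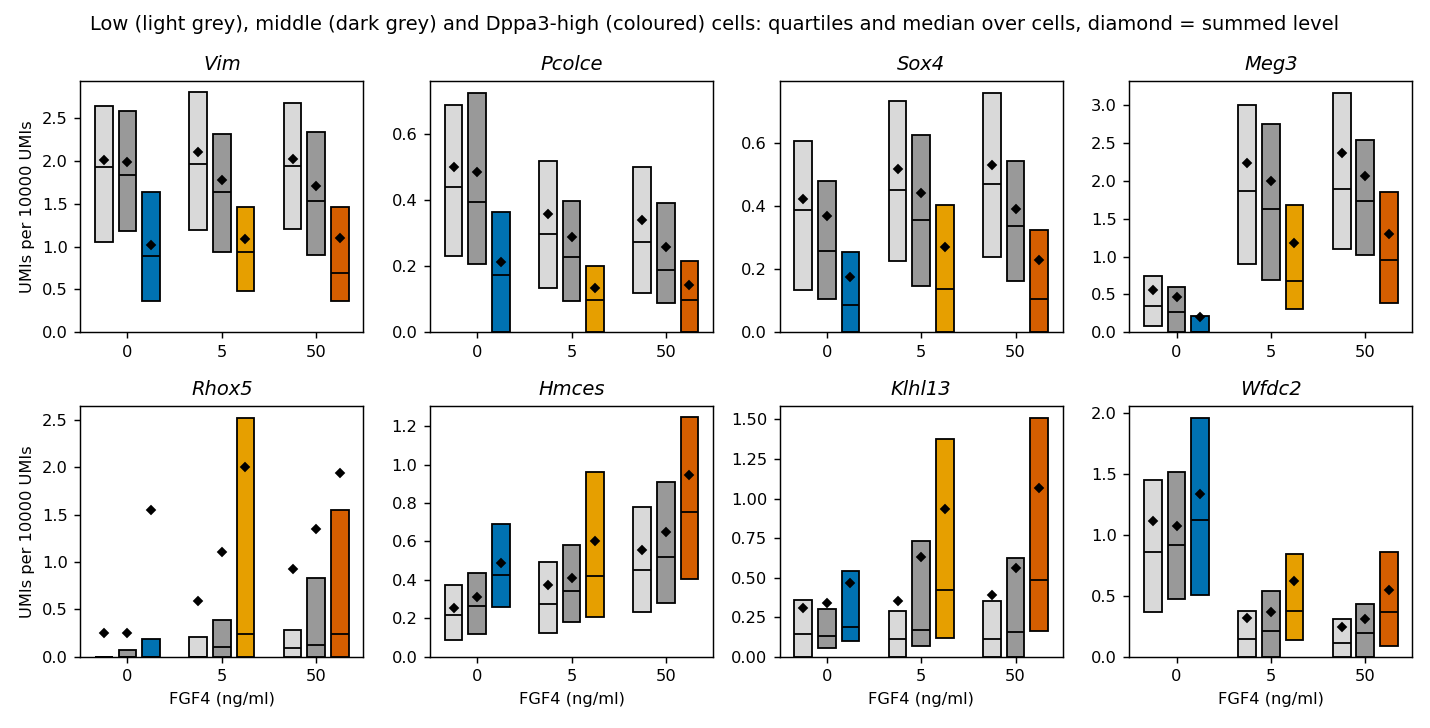
UMIs per 10000 UMIs (vertical axis) of 8 genes in low (light grey), middle (dark grey) and Dppa3-high (coloured) cells at 0, 5 and 50 ng/ml FGF4 (horizontal axis). Boxes span the middle 50% of cells with the median as a line, and diamonds mark the summed level. Vim, Pcolce, Sox4 and Meg3 step down from low to high cells, and Rhox5 diamonds lie far above the medians.

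Hmces (chr6:87913935-87936629, plus strand), whose product shields abasic sites in single-stranded DNA, was spread over many cells. It stood at 48.6 CPM in high and 25.1 in low cells at 0 ng/ml, at 60.5 and 37.1 at 5 ng/ml, and at 94.8 and 55.5 at 50 ng/ml. It was 1.93-fold (1.62 to 2.3), 1.63-fold (1.46 to 1.82) and 1.71-fold (1.57 to 1.85) higher, and 1.48-fold at 5 ng/ml without the 3 cells with most of its UMIs. Rhox5, an X-linked homeobox gene of the reproductive tissues, stood at 155 CPM in high and 25.2 in low cells at 0 ng/ml, at 200 and 59.1 at 5 ng/ml, and at 194 and 92.7 at 50 ng/ml. It was carried by few cells. At 0 ng/ml the median high cell had no Rhox5 UMI, 3 of the 36 high cells held 78.9% of their UMIs, and the ratio was 6.16-fold (5.4 to 7.04) with those 3 cells and 1.47-fold without them. At 5 and 50 ng/ml 3 cells held 28.5% and 26.3%, and the ratio went from 3.39-fold to 2.61-fold and from 2.1-fold to 1.64-fold.

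Rhox5 was not the only X-linked gene on the higher side. The X chromosome held 3 of 29 genes linked higher at 0 ng/ml (Eras, Rhox5 and Usp26; 10.3%, against 3.04% of all genes measured), 4 of 24 at 5 ng/ml (Klhl13, Rhox5, Usp26 and Mpp1; 16.7% against 3.11%) and 5 of 26 at 50 ng/ml (Klhl13, Rhox5, Rhox6, Mageb16 and Sms; 19.2% against 3.11%). Together these were 8 of the 61 genes linked higher at least once, while 0 of the 89 genes linked lower were X-linked. X-linked genes as a whole did not lean either way, with median log2 ratios of -0.01, -0.01 and 0.02.

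Klhl13, the adaptor of a CUL3 ubiquitin ligase, stood at 46.7 CPM in high and 30.9 in low cells at 0 ng/ml, at 93.1 and 35.0 at 5 ng/ml, and at 107 and 39.2 at 50 ng/ml. Its level in high cells was 2.28-fold higher (1.95 to 2.67) at 50 than at 0 ng/ml, and in low cells 1.27-fold (1.14 to 1.42). At 0 ng/ml 3 cells held 41.7% of its UMIs in high cells and the ratio without them was 0.984, against 2.18 and 2.14 at 5 and 50 ng/ml. Rhox6, a neighbour of Rhox5 in the same gene cluster, stood at 18.3 CPM in high and 2.79 in low cells at 0 ng/ml, at 12.4 and 4.01 at 5 ng/ml, and at 20.9 and 4.63 at 50 ng/ml. In high cells 3 cells held 75.6%, 42% and 44.4% of its UMIs. Usp26, a germline deubiquitinase, stood at 58.7 against 16.9 CPM, 66.2 against 10.2 and 19.6 against 14.0. The median cell of both classes had no Usp26 UMI at each dose.

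Some genes had a lower level with FGF4 in low cells, and less so in high cells. Wfdc2, a secreted protein with whey acidic protein domains, stood at 134 CPM in high and 112 in low cells at 0 ng/ml, at 62.0 and 31.5 at 5 ng/ml, and at 55 and 24.4 at 50 ng/ml. It was 4.58-fold lower in low cells (4.24 to 4.95) and 2.43-fold lower in high cells (2.15 to 2.76) from 0 to 50 ng/ml. The log2 ratio of high to low cells was 0.26, 0.97 and 1.17, a difference of 0.91 between 50 and 0 ng/ml (0.70 to 1.12). Ckb, the brain-type creatine kinase, stood at 887 and 710 CPM, 382 and 233, and 324 and 202, and was linked higher with FGF4.

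**Figure D3:**
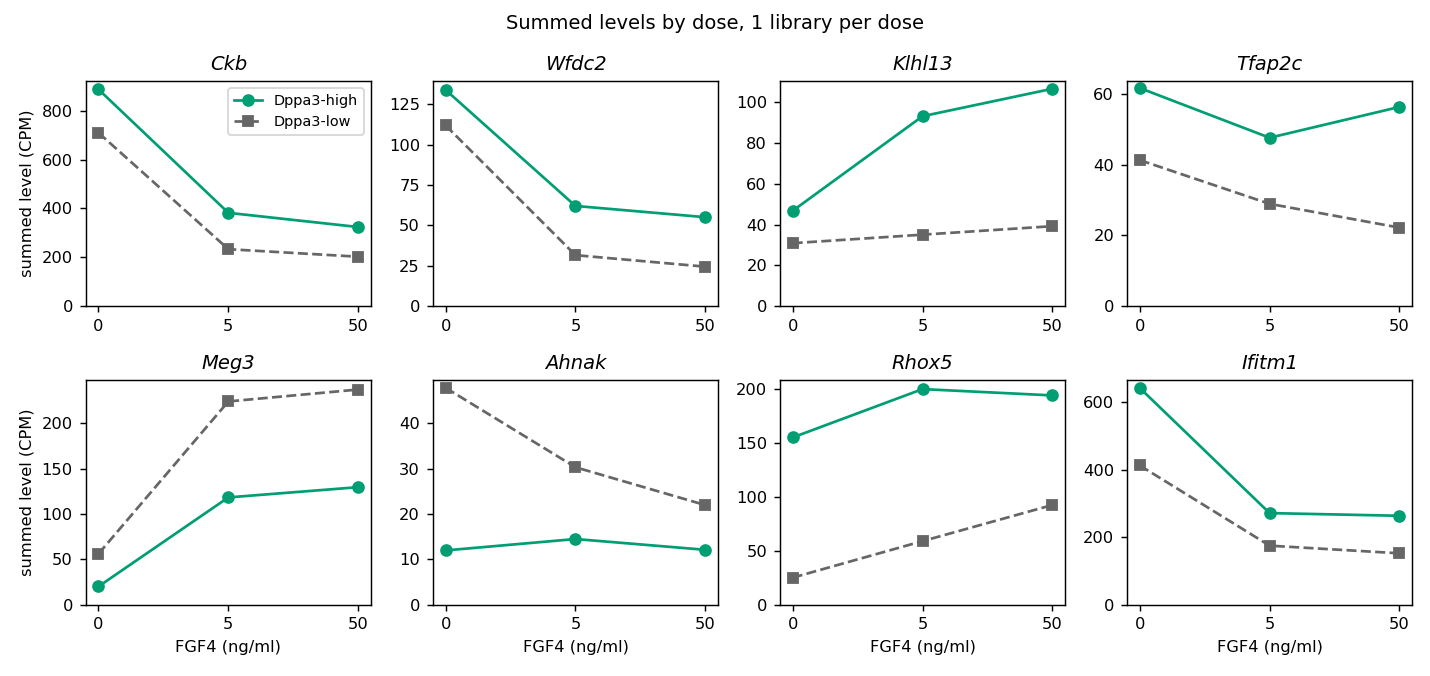
Summed level in CPM (vertical axis) in Dppa3-high and Dppa3-low cells against the FGF4 dose (horizontal axis, equally spaced), 1 library per dose. Wfdc2 in low cells goes from 112 to 24.4 CPM and in high cells from 134 to 55 CPM, and Ahnak differs between doses in low cells only.

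In middle cells, which are separate from both classes, 132 genes were at least 2-fold lower at 50 than at 0 ng/ml. Their median log2 ratio of high to low cells was 0.00, 0.01 and 0.08 at 0, 5 and 50 ng/ml, against 0.00, 0.01 and 0.00 over all 5704 genes with the same minimum. At 50 ng/ml 5 of the 132 were linked higher (Lefty2, Wfdc2, Ifitm1 and Ckb among them) and 7 lower, Tbx3, Cald1 and Ahnak among them, beside 24 higher and 28 lower of all 5704. Of the 119 genes at least 2-fold higher at 50 ng/ml in middle cells, 3 were linked higher (Hmces, Bmp4 and Rhox5) and 5 lower (Gbx2, Cntfr, Sox11, Meg3 and Rian).

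Of 6 measured genes on a list for primordial germ cells, 1 was linked higher at 0 ng/ml (Ifitm1) and 1 at 5 ng/ml (Tfap2c). At 50 ng/ml both were linked higher, and none was linked lower at any dose. Over all genes 0.513%, 0.429% and 0.47% were linked higher at 0, 5 and 50 ng/ml. The list medians were 0.23, 0.30 and 0.48 beside about 0 over all genes. By edgeR, 3 of the 6 were higher (Tfap2c, Ifitm1 and Lefty1), beside 3.77% of all genes. Lefty1 is also counted with the Nodal pathway genes below. Tfap2c, the transcription factor AP-2 gamma, stood at 61.7 CPM in high and 41.3 in low cells at 0 ng/ml, at 47.7 and 29.0 at 5 ng/ml, and at 56.4 and 22.2 at 50 ng/ml. It was 1.49-fold (1.29 to 1.73), 1.65-fold (1.45 to 1.86) and 2.54-fold (2.27 to 2.84) higher, and 1.25-fold, 1.44-fold and 2.13-fold without the 3 cells with most of its UMIs, so that the link at 5 ng/ml was lost. The log2 difference between 50 and 0 ng/ml was 0.76 (0.50 to 1.03), with low cells at 1.86-fold less Tfap2c at 50 ng/ml (1.68 to 2.06). Ifitm1, an interferon-induced membrane protein found on early germ cells, stood at 643 and 413 CPM, 272 and 175, and 264 and 153. It was 1.56-fold (1.49 to 1.63), 1.55-fold (1.47 to 1.63) and 1.73-fold (1.65 to 1.81) higher, and 1.38-fold, 1.39-fold and 1.63-fold without the 3 cells with most of its UMIs. Its relative Ifitm3 lay at 0.26, -0.09 and -0.04 on the log2 scale, and Prdm14 was below 20 CPM in each group. Kit, Alpl and Ifitm3, the other measured members of the list, lay at 0.06, 0.08 and 0.04 over the 3 libraries. They were not called by edgeR (adjusted p = 0.73, 0.37 and 0.76).

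Of 9 Nodal pathway genes measured, 1, 0 and 1 were linked higher at 0, 5 and 50 ng/ml and none lower, with list medians of 0.18, -0.00 and 0.06. Over all genes 0.513%, 0.429% and 0.47% were linked higher. By edgeR, 3 of the 9 were higher (Lefty1, Lefty2 and Skil), beside 3.77% of all genes. Bmp4, the ligand that induces germ cells in the embryo, was linked higher at 5 ng/ml (30.4 against 16.7 CPM) and 50 ng/ml (48.6 against 24.0), and stood at 6.34 and 3.81 without FGF4. Its ratio of 2.02-fold at 50 ng/ml (1.8 to 2.27) was 1.59-fold without 3 cells, and that at 5 ng/ml went from 1.82-fold to 1.41-fold, below the 1.5-fold asked for. Lefty2, a secreted inhibitor of Nodal, stood at 57.0 and 31.2 CPM, 21.9 and 14.0, and 20.1 and 9.63, linked higher only at 50 ng/ml. Lefty1 lay at 0.18, 0.58 and 0.59 on the log2 scale and was not linked. Furin, a protease that matures such ligands, was linked higher at 0 ng/ml, where 1 cell held 45% of its UMIs in high cells.

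Of 18 naive pluripotency genes measured, none was linked higher, 1 was linked lower at 5 ng/ml (Tbx3, beside 0.59% of all genes) and 2 at 50 ng/ml (Tbx3 and Gbx2, beside 0.578%), with list medians of -0.11, -0.09 and 0.02 (the last turned sign under some alternatives). By edgeR, 6 of the 18 were lower (Tbx3, Gbx2, Klf4, Klf5, Manba and Jam2) and 2 higher (Klf2 and Nr5a2). Over all genes edgeR called 4.2% lower and 3.77% higher. Tbx3, a T-box factor of the naive network, stood at 88.3 CPM in high and 120 in low cells at 0 ng/ml, at 42.5 and 68.6 at 5 ng/ml, and at 33.1 and 54.1 at 50 ng/ml. Klf4, another naive factor, lay on the same side at -0.40, -0.56 and -0.60 on the log2 scale and was not linked at any dose (edgeR, adjusted p = 0.00093). Nanog, which neighbours Dppa3 on the chromosome, lay at -0.15, 0.27 and 0.29 (edgeR, adjusted p = 0.30). Slc2a3, a glucose transporter of the same neighbourhood, lay at 0.28, 0.32 and 0.33 (edgeR, adjusted p = 0.00024), and Gdf3 at 0.09, -0.03 and 0.04. Of 10 general pluripotency genes, Pou5f1 and Sox2 among them, and 8 formative genes measured, none was linked at any dose. By edgeR, 2 of the 8 formative genes were higher (Dnmt3b and Pim2) and 1 was lower (Lef1). It called none of the 10 general pluripotency genes. Dnmt3b is also counted with the DNA methylation enzymes below.

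None of 14 measured DNA methylation enzymes and cofactors was linked at any dose. By edgeR, 2 of the 14 were higher (Uhrf2 and Dnmt3b) and 1 was lower (Tdg), each by less than 1.5-fold. Over all genes edgeR called 3.77% higher and 4.2% lower. The adjusted p of Uhrf1 was 0.75 by edgeR. Uhrf1, the binding partner of DPPA3, stood at 173 CPM in high and 159 in low cells at 0 ng/ml, at 191 and 190 at 5 ng/ml, and at 182 and 184 at 50 ng/ml. Dnmt1 lay at -0.23, -0.17 and -0.00 on the log2 scale, Dnmt3b at 0.48, 0.30 and 0.28, and Tet1 at 0.23, -0.04 and -0.18. Of 6 measured germline genes known to be silenced by methylation, Hormad1, of the meiotic chromosome axis, was linked higher at 0 ng/ml (27.2 against 14.7 CPM). Rpl10l was linked lower at 5 and 50 ng/ml. Over all genes 0.513% were linked higher at 0 ng/ml, and 0.59% and 0.578% lower at 5 and 50 ng/ml. By edgeR, 2 of the 6 were higher (Tex19.1 and Hormad1) and 1 was lower (Rpl10l), beside 3.77% and 4.2% of all genes. Stra8, which drives entry into meiosis, was linked lower at 0 ng/ml (31.7 against 63.8 CPM) and 5 ng/ml (15.9 against 26.3).

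None of 10 measured FGF and ERK response genes was linked, with list medians of -0.09, -0.31 and -0.15. By edgeR, 1 of the 10 was lower (Etv4), beside 4.2% of all genes. With FGF4 the ratios of Etv4, Spry4 and Egr1 lay below 0. Etv5, another member of the list, lay above 0 over the 3 libraries (log2 ratio 0.13, edgeR, adjusted p = 0.25). Etv4, a transcription factor induced by ERK, stood at 37.4 CPM in high and 53.5 in low cells at 5 ng/ml and at 76.7 and 92.8 at 50 ng/ml, against 0.704 and 1.10 without FGF4. Spry4, a feedback inhibitor, lay at -0.54 and -0.33 on the log2 scale at 5 and 50 ng/ml, and Egr1, an immediate early gene, at -0.93 in both, with both classes under 20 CPM. Of the S phase genes (23 measured) and G2 and M phase genes (24 measured) none was linked. No glycolysis gene (16 measured), p53 target (13 measured) or heat shock gene (8 measured) was linked either. By edgeR, 1 glycolysis gene was higher (Slc2a3) and 1 lower (Ldha), and 2 p53 targets were lower (Mdm2 and Ccng1). It called 1 heat shock gene higher (Hsp90aa1) and 1 lower (Hspb1). It also called 1 S phase gene lower (Gins2) and 1 G2 and M phase gene higher (Cenpf). Each of these differed by less than 1.5-fold. Over all genes edgeR called 3.77% higher and 4.2% lower.

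Markers of other cells that the cultures could hold were mostly below 20 CPM. Of 12 fibroblast genes 1 was measured, Fbln1, at 63.4 CPM in high and 76.0 in low cells at 0 ng/ml, and the summed level of the list was 68.1 and 84.3, 57.6 and 66.3, and 58.0 and 66.2 CPM. No primitive streak gene of 15 reached 20 CPM, and of 12 trophectoderm genes only Tfap2c did. The summed level of 2-cell-like genes, which a rare state of these cultures expresses, was 1.41 CPM in high and 46.4 in low cells at 0 ng/ml, 0.562 and 14.6 at 5 ng/ml, and 1.35 and 87.1 at 50 ng/ml. At 50 ng/ml 3 of 489 low cells held 93.9% of Zscan4d and 93.3% of Zscan4c UMIs in low cells. Without those 3 cells both genes were still at least 1.5-fold lower, but the minimum of 20 CPM was read with them included. The difference thus rested on few cells.

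Between libraries, the genes linked in 1 library mostly lay on the same side in another. Of the genes linked higher at 50 ng/ml, 23 of 24 measured at 5 ng/ml lay above 0, with a median log2 ratio of 0.64, and 21 of 23 measured at 0 ng/ml, with a median of 0.51, against 54.8% and 50.2% of all genes. Of those linked lower at 50 ng/ml, 23 of 23 lay below 0 at 5 ng/ml and 20 of 22 at 0 ng/ml, against 45.2% and 49.8% of all genes. The lists shared 11 higher genes between 5 and 50 ng/ml (45.8% and 42.3% of the lists), 5 between 0 and 5 ng/ml (17.2% and 20.8%) and 4 between 0 and 50 ng/ml (13.8% and 15.4%). Of lower genes they shared 12 (36.4% and 37.5%), 13 (25% and 39.4%) and 10 (19.2% and 31.3%). Across genes measured in both libraries, Pearson's r of the log2 ratios was 0.62 between 5 and 50 ng/ml (5430 genes), 0.47 between 0 and 5 ng/ml (5332 genes) and 0.60 between 0 and 50 ng/ml (5246 genes). Spearman's rho was 0.49, 0.34 and 0.32 in the same order. With at least 50 CPM in both libraries r was 0.72, 0.56 and 0.49. Genes are not independent replicates, and the libraries hold different numbers of high cells.

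**Figure D4:**
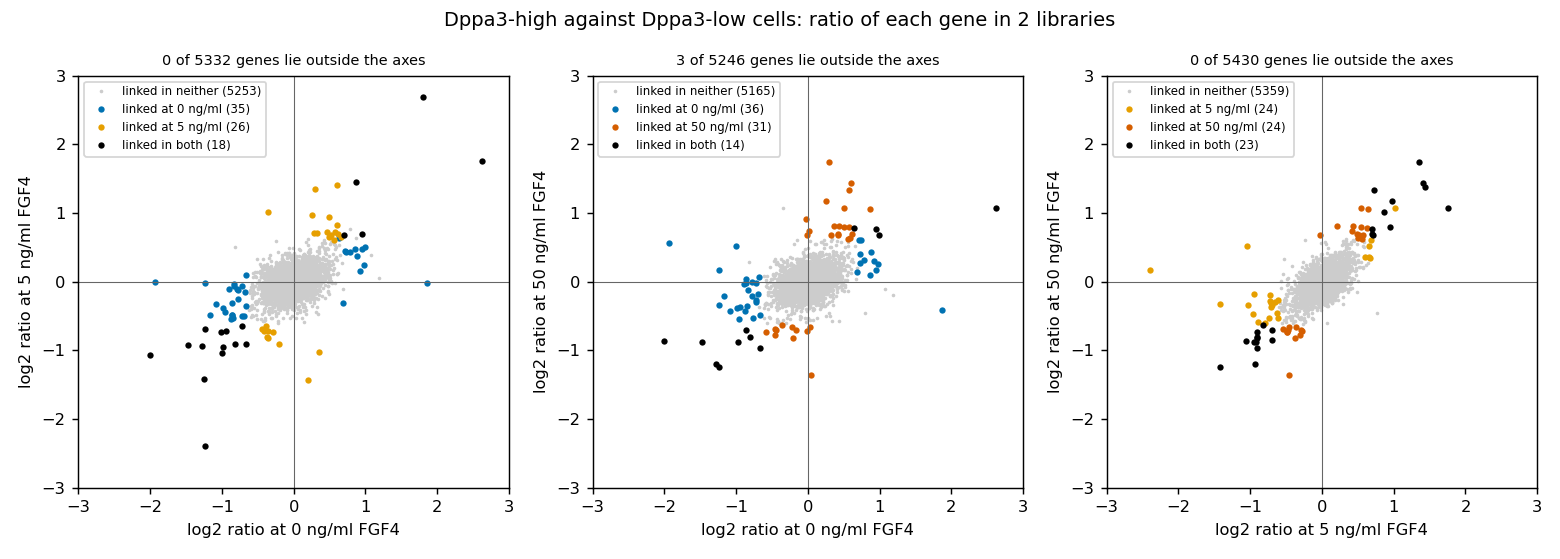
Log2 ratio of Dppa3-high to Dppa3-low cells of each gene in 1 library (horizontal axis) and another (vertical axis), for genes with at least 20 CPM in both. Grey points are linked in neither library, coloured points in 1 and black points in both. Points linked in both lie in the lower left or upper right corner.

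The ratio itself differed between libraries for 49 genes between 0 and 5 ng/ml (0.827% of 5923), for 55 between 0 and 50 ng/ml (0.925% of 5946) and for 16 between 5 and 50 ng/ml (0.281% of 5701). Here a gene had to be linked in at least 1 of both libraries, with ratios at least 1.5-fold apart and an interval of their difference that left out 0. Between 5 and 50 ng/ml Usp26 differed by -2.21 on the log2 scale (-2.53 to -1.90), Epha4 by -0.90 (-1.32 to -0.48) and Tfap2c by 0.62 (0.39 to 0.86). Calcoco2, an autophagy receptor, stood at 160 CPM in high and 204 in low cells at 0 ng/ml, but at 44.0 and 21.7 at 5 ng/ml and 29.6 and 14.0 at 50 ng/ml, where 3 high cells held 41.9% and 47.5% of its UMIs in high cells. Several of the widest differences came from genes carried by few cells at 0 ng/ml, among them Spata7, where 3 high cells held 80.2% of UMIs. These differences are between 1 library each and have no replicate check.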

How the data were processed

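Gene expression was measured with 10x Genomics 3′ v3.1 single-cell libraries, 1 per FGF4 dose, in 373, 874 and 975 cells with 42726514, 75184072 and 81409975 UMIs. The authors deposited UMI counts per gene and cell, made with Cell Ranger 4.0.0 per the file headers and aligned to mm10 per the submitters' processing notes. Filters on cells before deposit are not given in the sources used here. Gene coordinates and chromosomes came from GENCODE M21, which holds 32158 of 32285 gene identifiers, and promoter windows from RefSeq.

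From these counts, cells with more than 10% mitochondrial UMIs or a total over 3-fold from the library's median were left out (14, 168 and 177). UMIs were summed over Dppa3-high and Dppa3-low cells, with Dppa3 left out, and ratios were given 95% exact conditional binomial intervals (SciPy 1.17.1). A group sum of 0 was set to 3 counts. Differences of log2 ratios have delta-method intervals. Intervals cover counting error only, and no test between doses was made. Summed counts of high and low cells were also tested over the 3 libraries as pairs with edgeR 4.0.16 (TMM scaling, quasi-likelihood test, library as a block, Benjamini-Hochberg adjustment), added after the data were seen, with DESeq2 1.42.0 as an alternative. Scrublet (in scanpy 1.11.5) called doublets, which were kept. Both procedures were run on simulated data that held no genes carried by few cells, so these runs do not cover such genes.

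Named genes were those linked in all 3 libraries (up to 15 per direction), the 8 with the largest ratio per direction and library, the 6 with the largest difference between 0 and 50 ng/ml per direction, and members of 32 gene lists, without predicted and ribosomal protein genes. Other genes linked in 2 libraries, the X-linked genes and the genes linked within the FGF4-lowered and FGF4-raised sets were named after their values were seen. The members and the lists were chosen with earlier results of these data known. The alternatives were other scalings (edgeR 4.0.16 TMM among them), minimum levels, fold limits, cell classes and cell filters. Some genes are counted but not reported here by name. Rpl10l and other near-identical gene copies may share reads.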

Additional observations from a re-analysis of the deposited data

Results flagged for a closer look

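In the genes below the ratio of high to low cells pointed opposite ways in 2 libraries. Every such difference is between 1 library per dose and was not tested. Between 0 and 5 ng/ml the log2 ratio of Furin differed by -2.13 (1.62 to -0.51), that of Mpv17l by -1.38 (0.35 to -1.02) and that of Tiparp by -0.99 (0.68 to -0.30). At 5 ng/ml 1 low cell held 26.2% of Furin UMIs in low cells, and high cells were 1.05-fold lower without it. Furin stood there at 9.42 CPM in high and 13.4 in low cells, under the minimum of 20 CPM. At 0 ng/ml 3 high cells held 64.8% of Mpv17l UMIs in high cells, and the ratio was 1.02 without the cell with most. Over the same doses Calcoco2 differed by 1.37 (-0.35 to 1.02) and Trpm1 by 2.07 (-1.36 to 0.71); 1 cell held 47.1% of Trpm1 UMIs in high cells at 5 ng/ml, and the ratio there was 0.875 without it.

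Between 0 and 50 ng/ml Spata7 differed by -2.28 (1.86 to -0.41), and 3 of the 36 high cells held 80.2% of its UMIs in high cells at 0 ng/ml. Cntfr, a receptor subunit for ciliary neurotrophic factor, differed by -1.78 (0.90 to -0.88). Trpm1 differed by 2.58 (-1.36 to 1.22). Olfr889 differed by 1.53 between 0 and 50 ng/ml (-1.0 to 0.52) and by 1.57 between 5 and 50 ng/ml (-1.04 to 0.52), with 65.7% of its UMIs in high cells at 50 ng/ml in 3 cells and a ratio of 0.992 there without the cell with most.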

How the results depend on the processing

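No paired analysis was possible between doses because each dose is 1 library. Counts are given as linked genes at 0, 5 and 50 ng/ml, genes higher and lower in all 3 libraries, and ratios that differ between 0 and 5, 0 and 50, and 5 and 50 ng/ml; as reported these were 81, 57 and 58, 2 and 7, and 49, 55 and 16. With totals without mitochondrial and ribosomal protein genes, which lets more genes reach 20 CPM, 140 and 94 genes were linked at 0 and 50 ng/ml, 4 were higher in all libraries, and 84, 90 and 26 ratios differed. With a minimum of 10 CPM 201, 129 and 130 were linked, 9 were higher in all, and 125, 131 and 39 differed. With 50 CPM 20, 21 and 25 were linked, 1 was higher and 2 lower in all, and 13, 17 and 8 differed. With no minimum 666, 668 and 756 were linked, 28 were higher and 28 lower in all, and 437, 471 and 317 differed. At 2-fold 18, 10 and 16 were linked, 0 were higher and 1 lower in all, and 9, 11 and 6 differed. With the top 5% as high cells 180, 120 and 121 were linked, 8 were higher in all, and 108, 115 and 47 differed. With the top 20% 35, 18 and 28 were linked, 2 were lower in all, and 19, 27 and 9 differed. With the lowest 10% as low cells 97 and 29 ratios differed between 0 and 50 and between 5 and 50 ng/ml. With low cells matched on total UMIs 4 genes were higher in all, and 80, 89 and 33 ratios differed. Without the condition on the cell with most UMIs 122 genes were linked at 0 ng/ml and 7 were higher in all; without the 3 cells with most UMIs, chosen after seeing the data, 51 were linked at 0 ng/ml and 0 were higher in all. Leaving out 1 library gave 4 to 11 genes higher (11 without 0 ng/ml, 4 without 5 and 5 without 50) and 10 to 13 lower in the others (12, 10 and 13). The log2 ratio of Slamf1 at 0 ng/ml reversed to 0.48 without called doublets, 0.20 with matched low cells and 0.27 without 3 cells, from -1.23, and that of Spata7 to -0.29 without 3 cells, from 1.86. Of linked genes, 35.8%, 42.1% and 44.8% were higher at 0, 5 and 50 ng/ml as reported, 29.6% at 5 ng/ml with each cell weighted equally, 70% at 5 ng/ml at 2-fold, 64% at 50 ng/ml with 50 CPM, and 21.6%, 31.7% and 34.7% without the 3 cells with most UMIs. The test over the 3 libraries as pairs, and its alternatives, were added after seeing the data. It called 226 genes higher and 252 lower by edgeR with library as a block, 0 and 1 with no replicate block, 115 and 109 by DESeq2, 447 and 694 with no minimum level, and 83 to 400 higher and 91 to 464 lower with 1 library left out (400 and 464 without 0 ng/ml, 83 and 91 without 5, 180 and 195 without 50). The 9 genes linked in all 3 libraries passed in each of these except without the block, where 1 did. TMM and median-of-ratios scaling kept 81 of 81, 54 of 57 and 58 of 58 linked genes. Apart from the settings that alter which genes are tested or which cells are left out, the cause of these moves was not tested. The 0 ng/ml library has the fewest high cells, 36.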
